A study of Mus musculus with 64 samples.

Results

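Male germ cells change quickly in the days after birth, and the control animals of a study of MORC1, a nuclear ATPase that represses transposons in the male germ line, record that change. The libraries described here are the RNA-Seq libraries of germ cells sorted from Morc1tg/+ testes at postnatal day 2.5 (P2.5) and P10.5. They were chosen by genotype, tissue and age alone, and they are 7 of the 47 RNA-Seq libraries of the series, 3 from P2.5 and 4 from P10.5. Each library came from 1 mouse. All 7 mice carried 1 copy of Morc1tg, a tyrosinase transgene inserted into Morc1 that removes part of the gene, so no library stands for mice with both Morc1 copies intact. The P2.5 mice came from a cross into a mixed background that carried an Oct4-IRES-eGfp reporter, and their germ cells were sorted by GFP. The P10.5 mice were of the FVB/N line, and their germ cells were sorted by surface proteins as EPCAM-high, H2-Kq-negative cells of low side scatter. Stage, sorting method and mouse background therefore cannot be told apart in any difference below. Germ cells of Morc1tg/+ embryos at E16.5 and E18.5 (2 libraries each, sorted by GFP), Morc1tg/tg germ cells of the same postnatal ages (2 libraries at P2.5 and 3 at P10.5) and whole P10.5 Morc1tg/+ testes (2 libraries, made with another kit) serve as reference levels.

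In the mouse testis, prospermatogonia arrest before birth and re-enter the cell cycle in the first postnatal days as they move to the basement membrane of the cord. Some become spermatogonial stem cells, which depend on the ligand GDNF and its receptor complex of GFRA1 and RET. Others enter the first wave of spermatogenesis: they gain the receptor tyrosine kinase KIT, respond to retinoic acid, induce Stra8 and begin meiosis. Sorted cells of P2.5 are thus drawn from a population of transitional prospermatogonia and early spermatogonia, and testes of P10.5 also hold differentiating spermatogonia and the first cells of meiotic prophase. In bulk RNA, fewer cells of a type and less RNA per cell cannot be told apart.

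Between 2638278 and 6880081 reads per library were counted on genes at P2.5, and between 7474627 and 9085600 at P10.5. Levels are given as rescaled RPKM, that is RPKM (reads per gene length and library size) put on the scale of reads counted on genes. Replicate 1 of P2.5, the shallowest library, stood apart from the other two of its stage on the second principal component (24% of the variance, against 54.1% for the first, which separated the stages). Log2 profiles correlated at 0.885 to 0.932 within P2.5, at 0.973 to 0.979 within P10.5 and at 0.839 to 0.881 between the stages. Of 14159 genes tested with edgeR's quasi-likelihood test, 2825 were called higher (20%) and 2733 lower (19.3%) at P10.5 at an adjusted p under 0.05, together 39.3%. Every P10.5 library stood above every P2.5 library for 23.8% of genes tested, and below for 21.2%. At least 2-fold differences were called for 1148 genes higher (8.11%) and 1378 lower (9.73%). The split depends on the scale: on the RPKM as deposited, per mapped read, 1633 genes were higher and 3788 lower (30.12% of calls higher, against 50.83%), because P10.5 libraries had fewer of their mapped reads on genes, a shift of 0.246 on the log2 scale. Without P2.5 replicate 1, 6571 genes were called.

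The libraries of both stages carried germ cell RNA at high levels. Dazl, an RNA-binding protein of all germ cells, stood at 246, 293 and 291 in the 3 P2.5 libraries and at 262, 283, 218 and 220 in the 4 P10.5 libraries, and the groups overlapped (adjusted p = 0.226). Ddx4, the VASA helicase of germ cells, was at 75.9, 87.0 and 84.9 at P2.5 and at 56.4, 60.0, 59.2 and 53.1 at P10.5. It fell by 0.53 ± 0.09 (log2, SE; adjusted p = 0.000252), with every P10.5 library below every P2.5 library. The summed level of 17 germ cell identity genes was 947 to 1209 at P2.5, 923 to 1009 at P10.5 and 419 to 429 in whole testis. Of the 16 that were tested, 2 were higher, 7 lower and 7 not called at P10.5, against 20% higher and 19.3% lower of all genes tested. Without P2.5 replicate 1, 11 were lower.

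In the main comparison, genes of prospermatogonia and of pluripotent cells were the list with the highest share of falling members. Of 24 tested, 18 were lower and 3 higher at P10.5, against 19.3% and 20% of all genes tested. Of the 18, 14 were lower by at least 2-fold. The median log2 difference was -1.19 against 0.05 over all genes tested. The count of lower members ranged from 12 to 19 over 18 alternative settings. The lower members include Pou5f1 (Oct4), whose reporter chose the P2.5 cells. Without P2.5 replicate 1 the ranking changed: 17 of the 24 were lower, against 7 of 8 duct epithelium genes and 7 of 9 endothelial genes.

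Utf1, a chromatin protein of pluripotent cells and undifferentiated germ cells, was at 10.3, 11.4 and 12.9 at P2.5 and at 1.56, 1.13, 2.14 and 0.539 at P10.5. The lowest P2.5 library was thus well above the highest P10.5 library, and the difference was -3.09 ± 0.37 (log2, SE; adjusted p = 1.94e-05). Dppa4, a nuclear protein of pluripotent and germ cells, was at 38.7, 33.5 and 35.3 and then at 10.0, 12.1, 10.6 and 10.1 (-1.73 ± 0.14, adjusted p = 4.82e-07). Its partner Dppa2 was low at both stages and fell from a mean of 4.00 ± 1.18 (SD, n = 3) to 0.309 ± 0.201 (SD, n = 4).

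Sall4, a zinc finger repressor needed by prospermatogonia, was at 115, 88.1 and 88.4 at P2.5 and at 43.5, 47.1, 37.5 and 42.3 at P10.5 (-1.18 ± 0.11, adjusted p = 1.58e-06). The 4 P10.5 libraries lay close together and below all 3 of P2.5. Tfap2c and Prdm1, transcription factors that specify primordial germ cells, were lower at P10.5 by 2.13 ± 0.31 and 2.18 ± 0.37 on the log2 scale (SE), from P2.5 means of 3.57 and 1.63. Alpl, the alkaline phosphatase used to stain early germ cells, fell from 22.9 ± 0.94 (SD, n = 3) to 7.41 ± 0.70 (SD, n = 4).

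The paired RNA-binding proteins LIN28A and LIN28B, which block maturation of let-7 microRNAs, moved in opposite directions. Lin28a was at 28.2, 22.9 and 20.8 at P2.5 and at 10.9, 13.9, 17.4 and 15.0 at P10.5 (-0.73 ± 0.15, adjusted p = 0.00145). Lin28b was at 4.76, 5.87 and 4.65 and then at 10.4, 11.1, 11.4 and 11.9 (1.14 ± 0.13, adjusted p = 1.26e-05). Neither gene's groups overlapped. Lin28b was among the 3 list members called higher.

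Most of the stem cell genes tested were lower at P10.5. Of 30 genes of spermatogonial stem cells that were tested, 18 were lower, 5 higher and 7 not called, with a median log2 difference of -0.76. In the list of GDNF, KIT and FGF signalling, 15 of 28 were lower and 2 higher (median -0.56). Beside both lists, 19.3% of all genes tested were lower and 20% higher. Gfra1, Ret and Etv5, all lower, and Fgfr3, higher, are counted in both lists, as Utf1 is in the stem cell and prospermatogonial lists. The first count was 18 under each of the 18 alternative settings, and the second ranged from 10 to 15.

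Both chains of the GDNF receptor were lower at P10.5. Gfra1, the ligand-binding chain, was at 52.5, 46.7 and 50.5 at P2.5 and at 19.6, 21.6, 20.8 and 17.1 at P10.5 (-1.33 ± 0.10, adjusted p = 2.36e-07). Ret, the kinase chain, was at 64.4, 51.6 and 48.5 and then at 25.4, 28.0, 25.0 and 25.0 (-1.08 ± 0.10, adjusted p = 1.77e-06). The lowest P2.5 library was above the highest P10.5 library for each chain.

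The transcription factor genes Bcl6b, Lhx1 and Etv5, which GDNF induces in cultured stem cells, were lower too. Bcl6b was at 29.1, 33.3 and 31.0 at P2.5 and at 6.62, 6.08, 5.69 and 4.07 at P10.5 (-2.46 ± 0.15, adjusted p = 3.98e-08). Lhx1 was at 25.2, 34.4 and 27.8 and then at 6.65, 6.09, 5.08 and 5.48 (-2.32 ± 0.14, adjusted p = 3.12e-08). Etv5, an ETS factor needed for stem cell renewal, was at 68.0, 56.3 and 58.1 and then at 28.9, 26.8, 28.4 and 28.6 (-1.10 ± 0.09, adjusted p = 6.05e-07). Etv4, the ETS factor most like Etv5, was at 60.4, 51.6 and 44.2 at P2.5 and at 8.19, 7.20, 9.59 and 8.72 at P10.5 (-2.62 ± 0.13, adjusted p = 1.11e-08).

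The signalling list holds 7 feedback inhibitors of receptor kinases, and they did not all move. Spry4 fell from 14.3 ± 4.27 (SD, n = 3) to 5.08 ± 0.78 (SD, n = 4), Spry1 from 13.5 ± 3.46 to 6.14 ± 1.08, and Dusp6, a phosphatase of ERK, from 24.1 ± 3.89 to 13.6 ± 0.98. Spred2 was called lower with overlapping groups (adjusted p = 0.0432). Spry2 (1.89 ± 0.74 and 2.57 ± 0.54, adjusted p = 0.398), Dusp4 (adjusted p = 0.499) and Spred1 (adjusted p = 0.325) were not called. Id4, a marker of the stem cell pool, was at 31.5, 23.0 and 19.13 at P2.5 and at 12.9, 14.7, 14.1 and 15.3 at P10.5 (-0.76 ± 0.17, adjusted p = 0.00251). Eomes and Pax7, factors that mark small subsets of stem cells, fell by 1.59 ± 0.22 and 2.30 ± 0.30 (log2, SE). The surface proteins Cdh1 (E-cadherin) and Cd9, used to enrich stem cells, fell by 1.26 ± 0.12 and 1.17 ± 0.12.

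Zbtb16 and Nanos2, further regulators of undifferentiated spermatogonia, were not called. Zbtb16, which encodes the repressor PLZF, was at 49.9, 35.7 and 35.8 at P2.5 and at 38.4, 37.5, 38.8 and 39.1 at P10.5, with overlapping groups (adjusted p = 0.686). Nanos2, a translational repressor of the stem cell state, stood at 2.05 ± 0.72 (SD, n = 3) and 1.98 ± 0.39 (SD, n = 4; adjusted p = 0.967). Neurog3 and Sox3, genes of progenitors on their way out of the stem cell pool, were higher, and Upp1, another gene of progenitors, was not called (4.36 ± 1.13 and 3.46 ± 0.50, adjusted p = 0.49). Neurog3 had no read in any P2.5 library and was at 1.24, 1.06, 1.87 and 1.33 at P10.5, at least 19.8-fold higher when 3 reads over the P2.5 group are taken as the floor (adjusted p = 0.000881). Sox3 was at 4.53, 6.69 and 6.56 and then at 13.8, 12.7, 19.7 and 14.8 (1.34 ± 0.20, adjusted p = 0.00012).

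Genes of differentiating spermatogonia went the other way: of 22 tested, 13 were higher, 5 lower and 4 not called at P10.5. Their median log2 difference was 0.70. The shares over all genes tested were 20% higher and 19.3% lower. Kit, the receptor whose gain marks differentiation, was at 8.14, 13.9 and 12.6 at P2.5 and at 25.3, 22.7, 25.3 and 26.5 at P10.5 (1.10 ± 0.14, adjusted p = 4.07e-05). P2.5 replicate 1 had the lowest value, and each P10.5 library was above all 3 of P2.5. Dmrtb1 (DMRT6), a regulator of the passage from mitotic spermatogonia to meiosis, was at 4.13, 4.80 and 4.28 and then at 58.8, 45.1, 52.2 and 65.1 (3.64 ± 0.16, adjusted p = 2.82e-09). Its related factor Dmrt1, already at 116 ± 6.12 (SD, n = 3) at P2.5, reached 167 ± 2.59 (SD, n = 4; 0.53 ± 0.08, adjusted p = 8.69e-05).

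Prss50, a testis serine protease, was at 3.57, 3.04 and 6.52 at P2.5 and at 48.2, 34.8, 37.9 and 44.0 at P10.5 (3.19 ± 0.23, adjusted p = 2.36e-07). Esx1, an X-linked homeobox gene of the germ line, was at 8.47, 5.39 and 4.90 and then at 57.6, 47.7, 46.8 and 54.9 (3.12 ± 0.18, adjusted p = 2.58e-08). For both, the lowest P10.5 library was far above the highest P2.5 library. Dmrtb1, Prss50 and Esx1 stood at means of 12.8, 10.3 and 12.1 in whole testis, below every P10.5 germ cell library. Ctcfl (BORIS), the germ cell paralogue of the insulator protein CTCF, rose from 1.42 ± 0.37 to 5.09 ± 0.63. Ccnd2, a D cyclin of spermatogonia, was among the 5 members called lower, at 64.4, 74.8 and 66.1 and then at 19.9, 20.5, 21.1 and 19.7 (-1.75 ± 0.08, adjusted p = 5.13e-09).

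In the retinoic acid pathway, 6 of 24 genes tested were higher and 2 lower, a share of higher members near the 20% of all genes. Rarg, Crabp1 and Stra8, all higher, are counted among the differentiation genes as well. The receptor Rarg, which acts in differentiating spermatogonia, was at 0.422, 2.22 and 3.83 at P2.5 and at 7.50, 6.77, 7.60 and 7.90 at P10.5 (1.68 ± 0.38, adjusted p = 0.00263). Its P2.5 libraries were widely spread and all below P10.5. Rara, the receptor better known from Sertoli cells, was at 13.6 ± 1.23 and 12.7 ± 1.60 (adjusted p = 0.598). The carrier genes Rbp4 and Crabp1 rose by 2.57 ± 0.26 and 0.74 ± 0.16 (log2, SE), whereas the retinol dehydrogenase gene Rdh10 rose between low levels, 0.936 ± 0.077 and 2.06 ± 0.22 (adjusted p = 0.00882, a call lost in libraries thinned to equal depth).

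**Figure D1:**
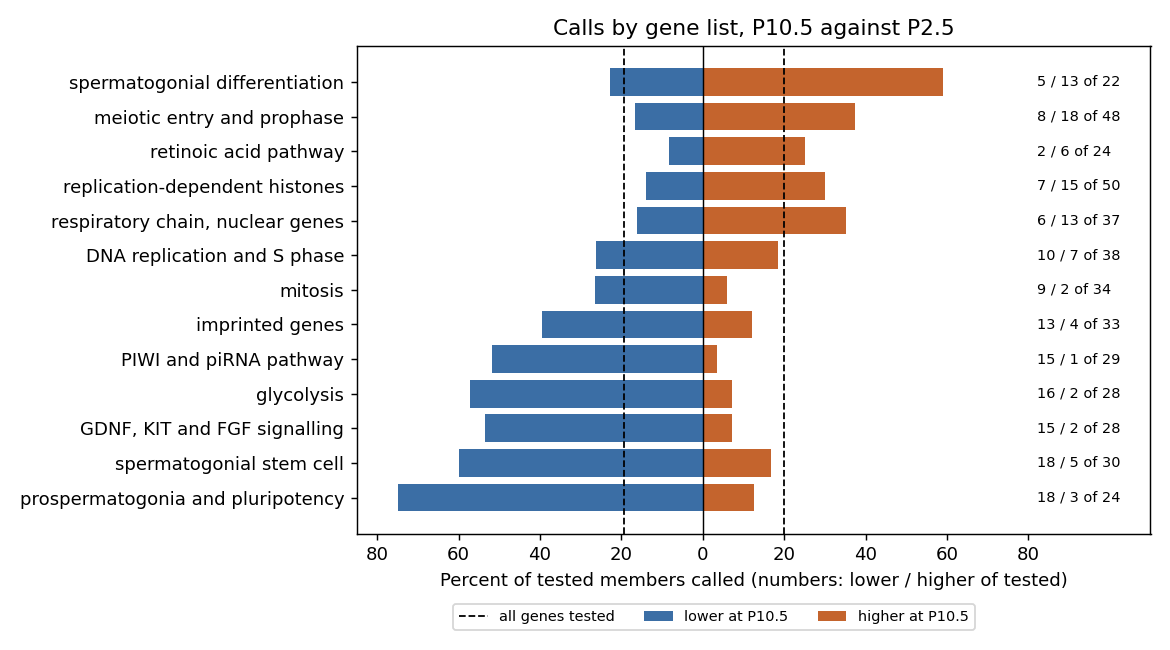
Percent of the tested members of 13 gene lists called lower (blue, left) or higher (orange, right) at P10.5 against P2.5, with the counts at the right edge and dashed lines at the percent over all 14159 genes tested. Prospermatogonial, stem cell, GDNF, glycolysis and piRNA genes leaned to the left, and differentiation and meiotic genes to the right.

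Genes of meiotic entry and prophase were higher in 18 and lower in 8 of 48 tested, against 20% and 19.3% of all genes tested. Their median log2 difference was 0.28, and Stra8 and Sycp1, both higher, are counted in the differentiation list too. The count of 18 went down to 12 on the deposited RPKM and when all 20 sorted germ cell libraries were fitted together. Promoter sequences of 3 of the rising genes are shown because the text turns on them: Stra8, the retinoic acid target and gatekeeper of meiosis, Meioc, whose product keeps cells in prophase, and Prdm9, the histone methyltransferase that places recombination sites. Each line gives the 250 bases before the RefSeq transcript start, read on the gene's strand from mouse build GRCm38.p6, at chr6:34920698-34920947 (+ strand), chr11:102665335-102665584 (+ strand) and chr17:15564355-15564604 (- strand). Capitals mark matches on either strand to CACGTG (E-box), TCCCGC (E2F-like) and CCAAT (the NF-Y box, which reads ATTGG on the other strand). The direct repeat 5 element of retinoic acid receptors was searched as well.
Stra8: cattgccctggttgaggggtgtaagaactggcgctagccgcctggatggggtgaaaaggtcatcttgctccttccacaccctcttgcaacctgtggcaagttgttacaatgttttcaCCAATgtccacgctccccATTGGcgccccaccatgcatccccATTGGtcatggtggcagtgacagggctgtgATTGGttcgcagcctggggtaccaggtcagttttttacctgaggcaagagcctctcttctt
Meioc: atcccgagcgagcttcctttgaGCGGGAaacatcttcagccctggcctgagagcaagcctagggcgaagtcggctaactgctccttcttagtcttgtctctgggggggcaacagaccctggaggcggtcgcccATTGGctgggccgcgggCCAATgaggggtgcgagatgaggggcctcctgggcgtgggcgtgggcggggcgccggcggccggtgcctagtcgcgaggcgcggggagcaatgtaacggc
Prdm9: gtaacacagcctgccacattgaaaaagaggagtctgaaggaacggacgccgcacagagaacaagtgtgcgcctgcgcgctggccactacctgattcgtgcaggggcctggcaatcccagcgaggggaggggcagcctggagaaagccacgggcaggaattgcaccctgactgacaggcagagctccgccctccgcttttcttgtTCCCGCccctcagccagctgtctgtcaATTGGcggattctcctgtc

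Stra8 held 4 CCAAT matches, 133, 115, 91 and 61 bases before the start. Meioc held 2 CCAAT matches and 1 TCCCGC match, and Prdm9 held 1 of each. In windows that also take in the first 50 bases of the transcript, CCAAT was found for 60% of the 15 rising meiotic genes with a RefSeq window, for 57.1% of the 7 falling ones and for 43% of the 11075 tested genes with a window. CACGTG was found for 26.7%, 28.6% and 11.7% of the same sets, and TCCCGC for 53.3%, 71.4% and 40%. The sets of rising and falling genes are small, and their shares were not tested against each other. The direct repeat was searched in 1 exact form only, which 4 of the 11075 tested genes held. Its absence from the meiotic windows thus tells nothing about sites of retinoic acid receptors.

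Stra8 was at 16.2, 16.9 and 20.1 at P2.5 and at 49.4, 47.7, 40.6 and 52.5 at P10.5 (1.42 ± 0.13, adjusted p = 1.66e-06). Meioc was at 9.58, 10.1 and 8.01 and then at 36.4, 28.3, 27.1 and 29.7 (1.73 ± 0.13, adjusted p = 3.11e-07). Prdm9 was at 1.26, 0.692 and 1.87 and then at 10.4, 9.98, 9.51 and 9.60 (2.94 ± 0.26, adjusted p = 1.33e-06). All 3 genes were read at P2.5 already and rose without overlap, and their whole testis means (19.7, 6.45 and 2.65) lay below every P10.5 germ cell library. Ythdc2, the helicase partner of MEIOC, rose by 1.02 ± 0.19 from 3.54 ± 1.15 to 7.27 ± 0.76.

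The synaptonemal complex, the protein scaffold that joins homologous chromosomes, showed members moving both ways. Sycp1, its transverse filament, was at 30.3, 35.0 and 41.9 at P2.5 and at 67.8, 69.4, 62.2 and 64.7 at P10.5 (0.89 ± 0.11, adjusted p = 1.9e-05). Sycp2 and Sycp3, its axial elements, rose by 1.07 ± 0.10 and 0.67 ± 0.15. Tex12 and Syce3 of the central element were lower, by 0.68 ± 0.14 (adjusted p = 0.0015) and 0.59 ± 0.18 (adjusted p = 0.0161, a call lost without P2.5 replicate 1). The axis protein gene Hormad1 was at 29.5, 42.3 and 50.3 and then at 25.3, 20.4, 23.8 and 25.8 (-0.78 ± 0.16, adjusted p = 0.00142), and the cohesin gene Smc1b fell by 0.47 ± 0.09.

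In recombination, Dmc1, the meiotic strand-exchange protein, was at 9.51, 8.56 and 12.3 at P2.5 and at 19.5, 18.8, 20.4 and 17.6 at P10.5 (0.91 ± 0.15, adjusted p = 0.00033). Spo11, which makes the double-strand breaks, was low at both stages, 2.06 ± 0.60 and 1.00 ± 0.33, and was called lower with a call that at least 1 alternative lost (adjusted p = 0.035). H2afx, the histone variant phosphorylated at breaks, was at 52.3, 69.9 and 72.4 and then at 180.2, 111, 222 and 182 (1.42 ± 0.18, adjusted p = 3.58e-05). Of 18 genes of pachytene and later stages that were tested, 2 were higher and 4 lower, against 20% and 19.3% of all genes tested.

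In the piRNA pathway, which guides transposon silencing, 15 of 29 genes tested were lower and 1 higher (Tdrkh, 0.92 ± 0.21), with a median of -0.38. The shares over all genes tested were 19.3% lower and 20% higher. The count of lower piRNA genes ranged from 14 to 18 over the alternatives. It includes Morc1, whose silencing role the paper places outside piRNA production. Piwil4 (MIWI2), the nuclear PIWI protein of fetal prospermatogonia, was at 8.77, 10.8 and 10.6 at P2.5 and at 3.19, 5.20, 4.12 and 2.78 at P10.5 (-1.39 ± 0.21, adjusted p = 0.000123). Mael, a piRNA factor of germ granules, was at 133, 201 and 194 and then at 88.0, 79.0, 92.1 and 88.2 (-1.02 ± 0.12, adjusted p = 1.64e-05). Piwil2 (MILI) fell by 0.44 ± 0.09, from 43.0 ± 1.58 to 31.6 ± 2.95.

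Morc1 itself, read from 1 transgene-bearing and 1 intact allele, was at 22.1, 22.7 and 25.6 at P2.5 and at 8.32, 11.01, 12.1 and 9.90 at P10.5 (-1.19 ± 0.14, adjusted p = 1.21e-05). In the embryonic libraries its means were 39.4 (E16.5) and 23.9 (E18.5). Tdrd6, a tudor protein of the chromatoid body, fell from 1.12, 2.19 and 1.96 to under 0.1 in every P10.5 library (-4.84 ± 0.42, adjusted p = 9.16e-07).

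Among genes of DNA methylation, 4 of 17 tested were higher and 5 lower, against 20% and 19.3% of all genes tested, with 1 higher and 8 lower on the deposited RPKM, 7 lower without P2.5 replicate 1 and 2 higher without P2.5 replicate 3. Dnmt3l, the cofactor of de novo methylation in prospermatogonia, was at 3.10, 3.20 and 1.76 at P2.5 and at 0.170, 0.266, 0.0741 and 0.324 at P10.5 (-3.65 ± 0.65, adjusted p = 0.000529). It had stood at 87.3 at E16.5 and 38.5 at E18.5, so most of its fall lay before P2.5. Uhrf1, which brings DNMT1 to replicating DNA, was at 61.1, 68.7 and 73.8 and then at 29.1, 28.5, 31.4 and 30.2 (-1.18 ± 0.09, adjusted p = 2.81e-07), while the maintenance enzyme gene Dnmt1 stood at 79.2 ± 2.69 and 76.7 ± 5.05 (adjusted p = 0.707). Tet1, a 5-methylcytosine oxidase gene, fell from 1.63 ± 0.30 to 0.246 ± 0.072 (-2.71 ± 0.27, adjusted p = 2.96e-06). Dnmt3a was called lower (-0.48 ± 0.14) and Dnmt3b higher (0.41 ± 0.12), both calls that at least 1 alternative lost.

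In the histone methylation list 9 of 38 were higher and 11 lower, against 20% and 19.3% of all genes tested, with 4 and 15 on the deposited RPKM. Kdm6b, a demethylase of lysine 27 of histone H3, was at 38.4, 38.3 and 31.6 at P2.5 and at 79.5, 62.3, 72.0 and 79.4 at P10.5 (1.03 ± 0.10, adjusted p = 4.2e-06). Ezh1, a methyltransferase of the same residue, fell by 0.79 ± 0.09, from 42.1 ± 2.84 to 24.3 ± 1.55.

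**Figure D2:**
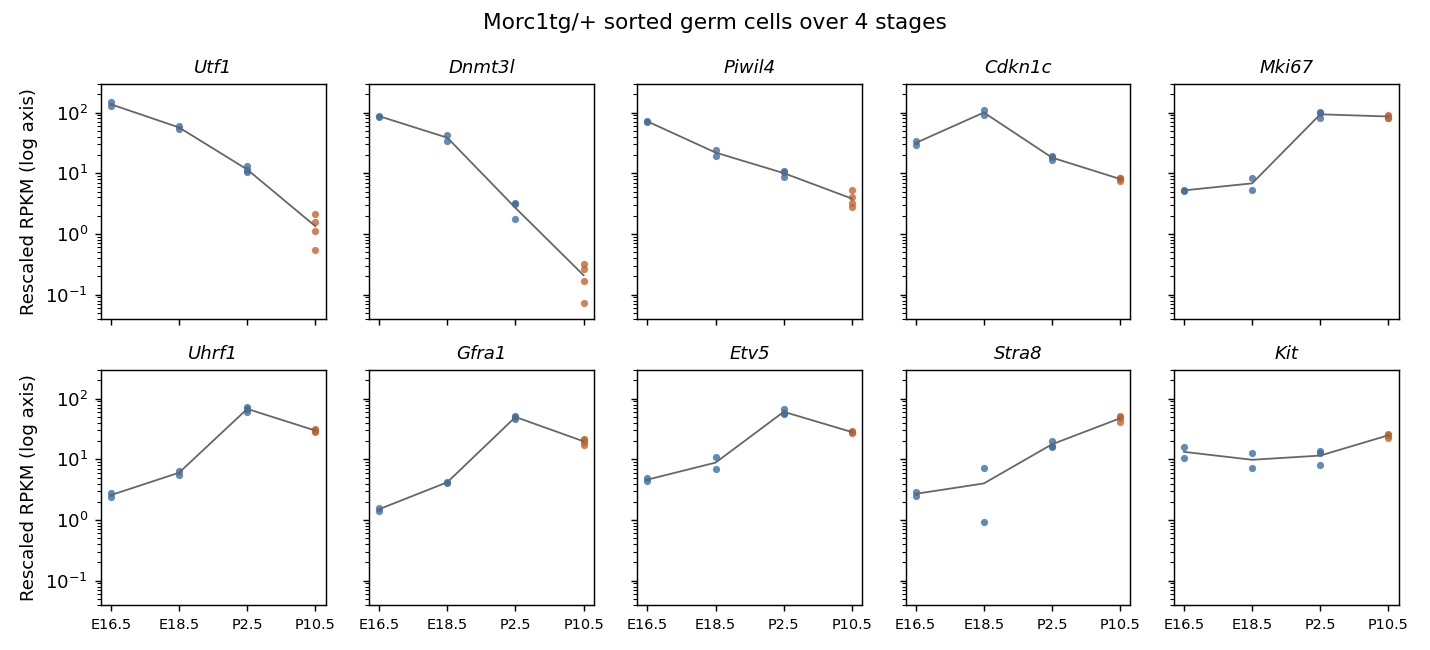
Levels of 10 genes in Morc1tg/+ sorted germ cells at 4 stages (rescaled RPKM, log axis), one point a library (2 at E16.5, 2 at E18.5, 3 at P2.5, 4 at P10.5) and lines through the means. Points in blue were sorted by GFP and points in orange by surface proteins. Utf1, Dnmt3l and Piwil4 went down from E16.5 on, Mki67 was high at both postnatal stages, Gfra1, Etv5 and Uhrf1 peaked at P2.5, and Stra8 stood highest at P10.5.

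The embryonic libraries, sorted by the same reporter as P2.5, place the cell cycle genes. Mki67, a marker of cycling cells, had means of 5.22 at E16.5 and 6.82 at E18.5. It was at 82.9, 97.6 and 100.5 at P2.5 and at 89.3, 90.6, 82.6 and 82.3 at P10.5, and the postnatal groups overlapped (adjusted p = 0.281). Of 34 mitosis genes, 32 were higher in every P2.5 library than in every embryonic library and 0 lower, and of 38 replication genes 27 were higher and 0 lower, against 21.9% and 16.3% of all genes tested. The median level of the replication genes was 8.54 in both E16.5 libraries, 5.95 and 6.06 at E18.5, 19.8 to 22.02 at P2.5 and 17.9 to 19.4 at P10.5. That of the mitosis genes was 6.91 and 7.25, then 5.49 and 6.79, 22.4 to 27.7 and 22.04 to 22.9. These levels are a description, with no test.

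From P2.5 to P10.5 the same genes went both ways. Of the 38 replication genes, 7 were higher and 10 lower, and of the 34 mitosis genes, 2 were higher and 9 lower, against 39.3% of all genes called. The median log2 differences were -0.13 and -0.15. Both counts depended on the setting. Of the mitosis genes, 19 were lower on the deposited RPKM, 17 without P2.5 replicate 1 and 4 with all 20 sorted libraries in 1 fit. Of the replication genes, 16 were lower on the deposited RPKM, and 6 in the joint fit and without P10.5 replicate 3. Pcna, the replication clamp, was at 103 ± 5.47 and 112 ± 5.37 (adjusted p = 0.28), and Top2a at 82.9 ± 8.06 and 72.2 ± 6.20 (adjusted p = 0.113).

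Several regulators of the G1 to S step differed. Ccne2, an E cyclin, was at 5.67, 3.56 and 6.13 at P2.5 and at 18.7, 19.7, 20.6 and 20.7 at P10.5 (1.98 ± 0.17, adjusted p = 1.12e-06). A list of 10 genes held D cyclins, cyclin-dependent kinases, Cdc25a and the Myc family. In it 6 were lower and 0 higher, against 19.3% and 20% of all genes tested. The lower genes include Myc, Cdc25a and Ccnd3, the last from 23.5 ± 3.91 to 9.38 ± 1.11 (-1.33 ± 0.15). Cdkn1c, the CDK inhibitor p57 and the product of an imprinted gene, had a mean of 100.2 at E18.5, was at 16.6, 19.4 and 18.4 at P2.5 and at 8.31, 7.96, 8.38 and 7.51 at P10.5 (-1.17 ± 0.15, adjusted p = 3.38e-05). Cdkn1a (p21) was at 4.56, 16.48 and 13.4 and then at 3.35, 2.15, 3.16 and 2.65, with P2.5 replicate 1 close to the P10.5 libraries (-2.04 ± 0.33, adjusted p = 0.000236).

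Histone genes gave some of the strongest rises. Of 50 replication-dependent histone genes tested, 15 were higher (30%) and 7 lower (14%), against 20% and 19.3% of all genes tested (median 0.25). Without P2.5 replicate 1, 16 were higher and 12 lower. Copies of these genes are nearly identical, so reads of single copies are uncertain. The libraries were made from total RNA without poly(A) selection, and these mostly non-polyadenylated mRNAs were near 0 in the poly(A)-selected whole testis libraries.

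The testis-specific pair Hist1h2aa (TH2A) and Hist1h2ba (TH2B), which share a promoter region, rose together. Hist1h2aa was at 168, 209.5 and 226 at P2.5 and at 714, 542, 630.4 and 732 at P10.5 (1.70 ± 0.13, adjusted p = 2.68e-07). Hist1h2ba was at 35.2, 33.1 and 38.9 and then at 336, 263, 284 and 294 (3.04 ± 0.13, adjusted p = 2.82e-09). Neither gene's groups came near each other. The region between their starts, which lie 281 bases apart on opposite strands, is shown as the 250 bases before the start of Hist1h2aa, at chr13:23934187-23934436 of GRCm38.p6 (+ strand), with CCAAT matches in capitals.
Hist1h2aa: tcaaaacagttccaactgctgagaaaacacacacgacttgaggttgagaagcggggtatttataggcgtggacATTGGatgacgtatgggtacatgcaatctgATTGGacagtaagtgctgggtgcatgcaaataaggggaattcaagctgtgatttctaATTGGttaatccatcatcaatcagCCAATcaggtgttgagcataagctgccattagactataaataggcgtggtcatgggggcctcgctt

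The 4 CCAAT matches lie 177, 147, 90 and 66 bases before the start of Hist1h2aa. The CCAAT letters were found in windows of 86.7% of the 45 tested histone genes with a RefSeq window, of 78.6% of the 14 rising ones and of 43% of all tested genes. The match thus did not set rising histone genes apart from the other histone genes. Further histones that rose were Hist1h1a, an H1 linker of spermatogonia (1.95 ± 0.15, from a mean of 106 to 406), Hist3h2ba (0, 3.12 and 1.54 and then 34.6, 37.4, 33.2 and 33.0) and, at low levels, the spermatocyte linker histone gene Hist1h1t (1.74 ± 0.23 to 7.88 ± 1.42).

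Imprinted genes are expressed from 1 parental copy in at least some somatic tissues, and the parental copies were not told apart here. Of 33 tested, 13 fell, 4 rose and 16 were not called (median -0.41), against 19.3% lower and 20% higher over all genes tested. The count of higher genes was 1 on the deposited RPKM, and 2 without P10.5 replicate 1 or 3. The growth factor gene Igf2 was at 70.4, 77.9 and 78.7 at P2.5 and at 26.6, 25.9, 23.2 and 27.8 at P10.5 (-1.54 ± 0.09, adjusted p = 2.58e-08). Mest was at 21.3, 25.8 and 26.0 and then at 3.96, 4.27, 4.41 and 3.60 (-2.58 ± 0.15, adjusted p = 2.41e-08). Both genes are paternally expressed in somatic tissue. The maternally expressed H19 RNA, next to Igf2, fell by 0.68 ± 0.18 (adjusted p = 0.00915), and Ube3a rose from 7.43 ± 1.78 to 15.5 ± 1.00 (1.05 ± 0.15).

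Among genes of energy metabolism, those of glycolysis were more often lower than higher. Of 28 genes of glycolysis and its transporters, 16 were lower and 2 higher (median -0.68). Of 37 nuclear genes of the respiratory chain, 13 were higher and 6 lower (35.1% and 16.2%, median 0.18). Over all genes tested, 20% were higher and 19.3% lower. On the deposited RPKM, glycolysis had 17 lower genes, but the respiratory chain had 6 higher and 11 lower, so its direction rests on the scale. Ldha, which makes lactate from pyruvate, was at 20.6, 19.4 and 15.9 at P2.5 and at 1.54, 2.43, 2.67 and 2.16 at P10.5 (-3.07 ± 0.22, adjusted p = 2.13e-07). Pkm, pyruvate kinase, was at 174, 164 and 175 and then at 86.8, 103, 88.2 and 84.3 (-0.91 ± 0.09, adjusted p = 2.51e-06).

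Pfkp and Hk2, kinases of the upper pathway, fell by 1.95 ± 0.16 and 1.36 ± 0.13, and Aldoa fell by 1.10 ± 0.12. Gapdh did not follow, with 269, 189.7 and 191 at P2.5 and 254, 257, 256 and 275 at P10.5 (adjusted p = 0.062). Ldha and Gapdh have many pseudogene copies, and reads shared with a copy were lost to unique mapping. The 2 higher members were Pdk2, an inhibitor of pyruvate dehydrogenase (1.34 ± 0.25), and the sperm enzyme gene Gapdhs, with no read at P2.5. In the respiratory chain, Ndufb5 of complex I rose by 1.26 ± 0.20 and Uqcrc2 of complex III by 0.83 ± 0.14.

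Of 33 germ cell regulators of RNA tested, 9 were higher and 8 lower, against the same shares over all genes, with 7 and 13 on the deposited RPKM. Ybx2 (MSY2), which stores mRNA in germ cells, was at 12.4, 11.3 and 12.2 at P2.5 and at 31.1, 27.9, 30.0 and 34.1 at P10.5 (1.37 ± 0.14, adjusted p = 3.25e-06). Celf1, a regulator of splicing and mRNA decay, rose by 1.09 ± 0.11, from 9.93 ± 1.60 to 21.2 ± 0.54. The fetal mRNA-binding proteins Igf2bp1 and Igf2bp2 fell by 0.94 ± 0.08 and 1.64 ± 0.13.

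Sex chromosomes leaned upward. Of 527 X-linked genes tested, 160 were higher (30.4%) and 54 lower (10.25%), with a median of 0.35. Over all genes tested, 20% were higher and 19.3% lower, with a median of 0.05. The higher X-linked count was 106 on the deposited RPKM, where 1633 of all 14159 genes were higher, and 176 without P2.5 replicate 1. Of 9 Y-linked genes tested, 5 were higher and 0 lower.

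Genes listed as markers of other testis cell types were read at both stages, and their levels differed between them. Of 20 Sertoli cell genes tested, 10 were higher and 2 lower at P10.5 (median 1.04), against 20% and 19.3% of all genes tested. The summed level of all 21 listed was 283 to 319 at P2.5 and 432 to 530.4 at P10.5, or 7.37% and 11.2% of the testis mean. For the 16 left after 5 that germ cells also express (Dmrt1, Tjp1, Espn, Krt18 and Ctsl) were set aside once values were seen, the sum was 44.3, 50.4 and 46.7 at P2.5 and 150.1, 147, 243 and 186 at P10.5. In whole testis it was 3577 and 3741, so on those 16 the sorted cells stood at 1.29% and 4.97% of the testis mean, and the size of the rise depends on the 5 set aside. Replicate 3 of P10.5 was the highest. Members that rose include the nurse-cell genes Aard (3.42 ± 0.84 to 30.1 ± 7.73), Clu (13.2 ± 2.35 to 59.9 ± 16.3), Cldn11 (0.670 ± 0.521 to 13.6 ± 3.07) and Wt1 (1.59 ± 0.47 to 7.31 ± 1.48). Of the 20 tested, 8 were not called. Of the 5 set aside, Dmrt1 rose, and Krt18 was among the 12 genes named for the size of their fall.

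Endothelial genes moved the other way. Of 9 tested, 6 were lower and 0 higher, against 19.3% and 20% of all genes tested. The summed level went from between 30.1 and 36.7 to between 9.12 and 11.4, or from 77.6% to 23.5% of the whole testis mean. Cdh5 (VE-cadherin) fell from 9.44 ± 2.05 to 1.23 ± 0.25 and Pecam1 from 5.42 ± 1.48 to 0.657 ± 0.077. Pecam1 and Flt1 stood higher at P2.5 (means of 5.42 and 4.675) than in whole testis (3.23 and 0.629). Esam and Cldn5 stood lower at P2.5 (0.0372 and 0.293) than in whole testis (3.425 and 3.447). The listed genes thus did not stand in the proportions of P10.5 whole testis. The part of endothelial cells in the sum was not tested. The macrophage and leukocyte sum went from between 15.6 and 34.9 to between 7.90 and 8.99 (52.8% and 19.6% of testis), although C1qa, Fcgr1 and Lyz2 had no read at P2.5. Cd79a and Cd68, at P2.5 means of 7.97 and 5.92, made up much of the P2.5 sum and stood above whole testis (0.141 and 2.49). Leydig sums were 13.8 to 15.4 and 12.5 to 15.1 against 211 to 218 in testis. A single gene, Fads1, which is not particular to Leydig cells, made up most of the sum in sorted cells (10.9 and 10.3 on average). Hsd3b1, Hsd3b6, Insl3 and Lhcgr had no read at P2.5.

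Krt19, a keratin of duct epithelium, fell to near 0: it was at 1.72, 2.98 and 7.79 at P2.5 and had reads in 1 of 4 libraries at P10.5 (-6.83 ± 0.92, adjusted p = 4.73e-05). Its mean in whole testis was 0.681, below every P2.5 library. The summed duct list at P2.5 stood at 426% of the testis mean, which is of P10.5 and of another kit. Spint1, not called, made up most of the sum, at 19.5 of 34.9 on average at P2.5. Of 8 tested, 4 were lower (Krt7, Krt8, Krt19 and Pax8) and 0 higher, against 19.3% and 20% of all genes tested. The part of other cells in the lists above was not tested.

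**Figure D3:**
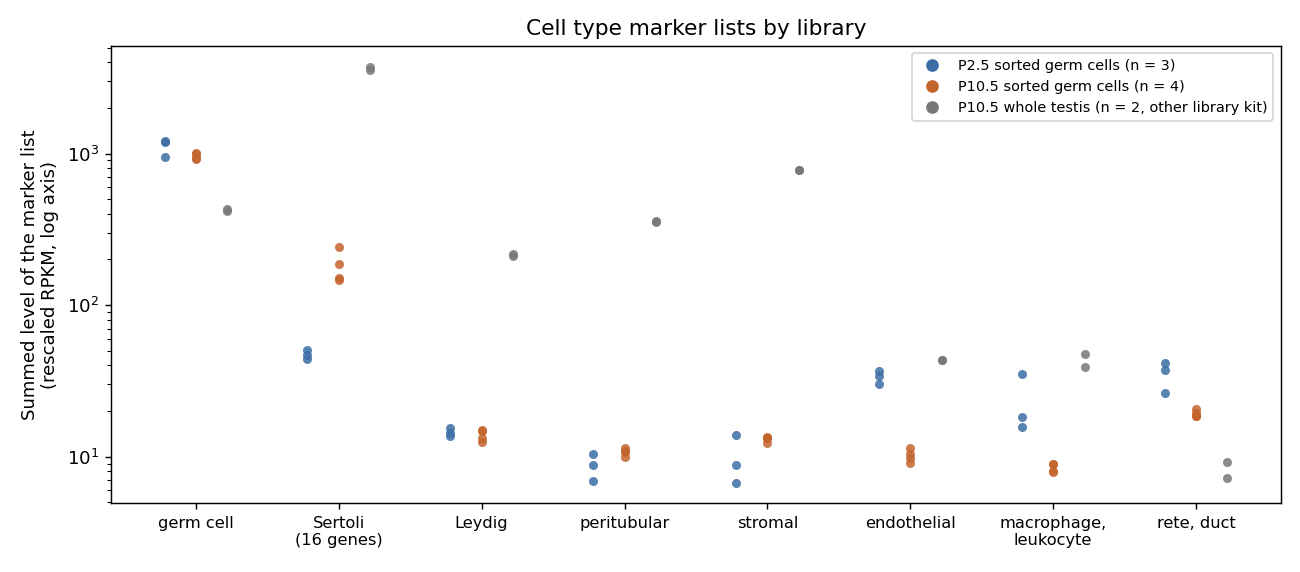
Summed level of the marker genes of 8 cell types in each library (rescaled RPKM, log axis) for sorted germ cells at P2.5 (blue, n = 3), at P10.5 (orange, n = 4) and whole P10.5 testis (grey, n = 2, another library kit), with the 16-gene sum for Sertoli cells. Sertoli genes stood higher and endothelial and macrophage genes lower at P10.5 than at P2.5, and Sertoli, Leydig, peritubular and stromal sums were far below whole testis at both stages.

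Genes tied to the sorts cannot count as findings, since cells were chosen by them or their products. Pou5f1 (Oct4) was at 16.2, 13.9 and 7.88 at P2.5 and at 4.34, 5.51, 7.14 and 3.81 at P10.5, Epcam was at 34.2 ± 6.70 and 35.6 ± 3.52, and H2-K1 at 3.81 ± 1.04 and 8.77 ± 1.60. Among 28 genes of dissociation and cell stress, 8 were lower and 4 higher, against 19.3% and 20% of all genes tested. Lower genes numbered 13 on the deposited RPKM and 10 without P2.5 replicate 1, and higher genes 2 without P10.5 replicate 2. Egr1, an immediate early gene, was at 211, 130.5 and 132 and then at 54.8, 51.8, 60.9 and 72.0 (-1.39 ± 0.15, adjusted p = 8.25e-06), and Hmox1, heme oxygenase, fell by 1.68 ± 0.12. Fos (5.96 ± 0.58 and 6.05 ± 1.07) and Jun (3.45 ± 1.01 and 3.15 ± 0.82) were not called.

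The largest rises were in genes with few or no reads at P2.5, where libraries were fewer and shallower than at P10.5. Of the genes called lower, 6 had no read at P10.5. Of those called higher, 61 had no read at P2.5, among them Gal, the neuropeptide galanin (at least 34.6-fold higher), and Neurog3. Several were small RNA genes inside host genes, SNORA18 and SNORD5 in Taf1d, Snora78 in Rps2 and SNORA66 in Rpl5, whose reads cannot be told apart from those of the host. Fgf11, an intracellular FGF homologue, was at 0.0683, 0.182 and 0.0786 at P2.5 and at 6.33, 5.83, 6.84 and 6.17 at P10.5 (5.73 ± 0.35, adjusted p = 4.36e-08).

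Among the 12 genes named for the size of their fall, Mmp9 and Sez6 had the most reads at P2.5 (4056 and 3818). Sez6, a membrane protein best known from neurons, was at 28.4, 29.2 and 31.1 at P2.5 and at 1.33, 1.27, 1.35 and 1.57 at P10.5 (-4.42 ± 0.12, adjusted p = 1.13e-11). Mmp9, a matrix metalloproteinase, was at 45.4, 46.4 and 44.4 and then at 3.12, 2.78, 3.13 and 3.08 (-3.90 ± 0.11, adjusted p = 1.13e-11). Replicates of each stage agreed closely for both. Elfn1 and Nxph4, further neuronal surface and secreted proteins, fell by 4.03 ± 0.21 and 3.91 ± 0.24, and Gsc, the homeobox gene goosecoid, fell from 4.27, 4.88 and 8.06 to 3 reads in all of P10.5.

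Libraries of Morc1tg/tg germ cells, which share no sample with the 7, were compared in the same way (2 at P2.5, 3 at P10.5). There 1359 of 14414 genes tested were higher (9.43%) and 1469 lower (10.2%). Of 5470 genes called in Morc1tg/+ and tested in Morc1tg/tg, 4977 (91%) had the same direction, against 75.4% of all genes tested in both, 2009 were called in both with 1 direction and 4 with opposite directions. The Morc1tg/tg count rests on its few libraries: it was 5629 and 6646 without P2.5 replicate 1 or 2, where the lone sample left is taken to vary like the other group, and 528, 605 and 680 without P10.5 replicates 1, 2 and 3.

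The difference between the stage effects was itself tested, and 71 of 15736 genes (0.451%) were called, 21 to 1734 when each of the 12 libraries was left out in turn, with the high end without Morc1tg/tg replicate 2 of P2.5. Of the 71, 28 had a smaller rise or larger fall in Morc1tg/tg, and 43 had a larger rise or smaller fall. The genes named here come from the gene lists. For several meiotic and differentiation genes the stage difference was lower in Morc1tg/tg than in Morc1tg/+. Meioc was at 12.4 and 14.1 at P2.5 and at 14.9, 13.1 and 13.8 at P10.5 in Morc1tg/tg, a stage difference smaller by 1.58 ± 0.20 on the log2 scale than in Morc1tg/+ (interaction, adjusted p = 0.00107). Stra8 was at 17.6 and 23.2 and then at 23.0, 21.9 and 20.9 (smaller by 1.26 ± 0.22, adjusted p = 0.0119). Prdm9 was at 3.09 and 2.43 and then at 4.25, 3.24 and 3.50 (smaller by 2.43 ± 0.40, adjusted p = 0.00795). The Morc1tg/tg values of these genes at P10.5 lay below every Morc1tg/+ library of that age. At P2.5 those of Meioc and Prdm9 lay above every Morc1tg/+ library, and those of Stra8 overlapped them. The interaction was called for each of them in all 12 fits that left out 1 library.

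The stage difference of Prss50, Esx1 and Ybx2 was also lower in Morc1tg/tg, by 2.72 ± 0.40, 1.74 ± 0.28 and 1.41 ± 0.26 (log2, SE). At P2.5 Prss50 stood at 15.6 and 6.94 in Morc1tg/tg, above the Morc1tg/+ libraries. Of these genes, Esx1 was called higher at P10.5 within Morc1tg/tg (1.36, adjusted p = 0.00518). Ybx2 was at 27.5 and 17.0 at P2.5 and at 23.1, 19.3 and 17.8 at P10.5 in Morc1tg/tg (-0.05, adjusted p = 0.9), and both P2.5 values lay above those of Morc1tg/+ at that age. Bcl6b and Cdh1 had a less negative stage difference in Morc1tg/tg, by 1.39 ± 0.24 and 1.18 ± 0.20, with -1.08 (adjusted p = 0.00606) and -0.09 (adjusted p = 0.716) within that genotype. Ybx2 and Bcl6b missed the threshold when some single libraries were left out, at an adjusted p of up to 0.0579 and 0.0558 without Morc1tg/tg replicate 3 of P10.5. For other stage genes no difference was called: Kit (0.01 ± 0.23), Dmrtb1 (-0.56 ± 0.27), Sall4 (0.06 ± 0.20) and Dppa4 (-0.01 ± 0.23). The Sertoli sum of 16 genes was 73.9 and 71.6 at P2.5 and 93.4, 165 and 85.5 at P10.5 in Morc1tg/tg libraries, that of all 21 was 309 and 334 and then 369, 436 and 353, and its part in these differences was not tested.

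**Figure D4:**
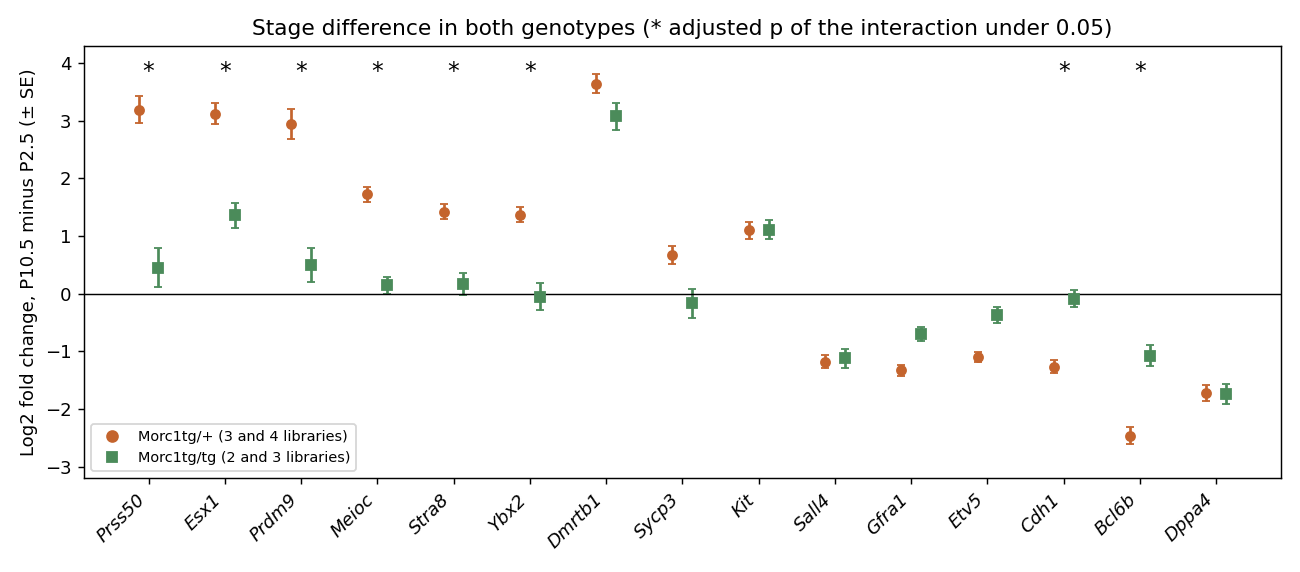
Log2 fold change from P2.5 to P10.5 (± SE) of 15 stage genes in Morc1tg/+ (orange circles, 3 and 4 libraries) and Morc1tg/tg germ cells (green squares, 2 and 3 libraries). Asterisks mark an adjusted p under 0.05 for the interaction of stage and genotype, as for Meioc, Prdm9, Stra8 and Bcl6b, whereas Kit and Dppa4 lay at the same place in both genotypes.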

How the data were processed

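RNA-Seq was made from ribosomal RNA-depleted total RNA of sorted germ cells with a NuGEN Ovation kit. Per the labels and methods, the authors trimmed reads, removed ribosomal RNA, kept reads mapped once to mm9 (Bowtie) and counted them on genes with HTSeq. Versions are not given in the sources used here. The deposited tables of 26385 genes hold raw counts and RPKM, the latter scaled to mapped reads. RPKM was multiplied by 1 factor per library to bring libraries to equal reads counted on genes.

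Counts were tested with edgeR 4.0.16 (R 4.3.3; TMM, filterByExpr, quasi-likelihood F-test, Benjamini-Hochberg over all genes tested), P10.5 against P2.5, with stage as the only term. SE is the log2 fold change over the square root of F. A gene was called at an adjusted p under 0.05. Alternatives included DESeq2 1.42.0, limma 3.58.1 on log2(RPKM + 1), other normalizations, filters, thinning to equal depth and leaving out each library. The 12 largest changes per direction with a mean of at least 5 RPKM in the higher stage were named by rule, as were genes of the lists; genes with at least 1 RPKM in both stages formed a rule added after values were seen. Gene lists, genes and groups were chosen with earlier results of these data known. On simulated counts for the 14159 genes, 61% of genes changed by 1 and 79% changed by 2 (log2) were called. Replicate numbers did not pair the samples. Transposon tables and other assays of the series were not used here.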

Additional observations from a re-analysis of the deposited data

Results flagged for a closer look

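Among the 4 P10.5 libraries, 1 library lay apart from the other 3 by Dixon's criterion in 14 of 155 values compared (9.03%), where chance gives about 1 in 20. The highest values that did so were Ret 27.96 (replicate 2, the others 25.01 to 25.41), Ezh1 26.59 (replicate 2), Dnmt3a 10.15 (replicate 1), Aldoa 44.08 and Igf2bp1 20.41 (replicate 3) and Gapdh 275.1 (replicate 4). The lowest were Dmrt1 162.7 (replicate 4, the others 167.6 to 168.2), Mmp9 2.778 and Rdh10 1.731 (both replicate 2) and Ythdc2 6.143 (replicate 3). Krt19 at 0.1172, Gsc at 0.1739 and Tnnt2 at 0.2835 had reads in 1 library and none in the other 3. The summed blood markers were 0.424 in replicate 1 and 3.95 to 4.65 in the others. The libraries lay close together in most of these genes, and of the genes called different only Dnmt3a had such a value within the range of the P2.5 libraries.

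Over all 71 genes called by the interaction test, 28 had a smaller rise or larger fall in Morc1tg/tg, and 43 a larger rise or smaller fall. The stage effect differed between Morc1tg/tg and Morc1tg/+ by this test for 11 genes of the lists or of the largest changes. On the log2 scale (Morc1tg/tg minus Morc1tg/+) the difference was -1.58 for Meioc, -2.72 for Prss50, -1.74 for Esx1, -2.43 for Prdm9, -1.26 for Stra8, -1.41 for Ybx2 and -4.95 for Fgf11, all rising in Morc1tg/+ and with a lower stage difference in Morc1tg/tg, where only Esx1 of the 7 was called higher. It was 1.18 for Cdh1, 1.39 for Bcl6b and 1.70 for Sez6, all falling in Morc1tg/+ and with a less negative stage difference in Morc1tg/tg, and 0.66 for Fkbp4, a cochaperone not called in Morc1tg/+. The call for Fkbp4 held in 5 of 12 fits without 1 library, whereas those for Fgf11, Meioc, Prss50, Sez6, Esx1, Prdm9, Cdh1 and Stra8 held in all 12.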

How the results depend on the processing

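Between 4361 and 6571 genes were called when each Morc1tg/+ library was left out in turn, 5972 with DESeq2, 4347 with all 20 sorted libraries in 1 fit and 4820 in libraries thinned to equal depth, against 5558. Higher genes numbered 1633 on the deposited RPKM and 2914 once RPKM was rescaled. No gene called in Morc1tg/+ turned its direction with a call under any of the 18 alternatives, of which rescaled RPKM and thinning without P2.5 replicate 1 were chosen after seeing the data. Of 133 named genes called, 126 kept the call under all alternatives run, and Dnmt3a, Dnmt3b, Mir466i, Rdh10, Spo11, Syce3 and U6 lost it under at least 1. Replicate numbers are shared between the stages, but same-numbered samples did not deviate together (r = 0.030, -0.013 and 0.015), so the numbers are not taken as pairs; with the replicate block 3983 genes were called, and 14 for stage by genotype. That count ran from 21 to 1734 without each library (chosen after seeing the data), and the Morc1tg/tg stage count from 528 to 6646; the causes were not tested. On simulated counts for the 7 libraries, whose depth went down to 2638278 reads on genes, 61% of 2-fold changes were found.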

Other observations

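Of 24 genes of NODAL, activin and BMP signalling tested, 4 were higher and 3 lower at P10.5, against 20% and 19.3% of all genes tested. Higher genes numbered 7 without a filter on low counts and 2 in thinned libraries, and 5 were lower on the deposited RPKM. The inhibitory Smad7 fell from 8.73 ± 1.05 (SD, n = 3) to 3.49 ± 0.18 (SD, n = 4), while the BMP receptor gene Bmpr2 rose from 8.78 ± 2.64 to 18.1 ± 2.48 and Smad5 from 5.07 ± 0.74 to 9.54 ± 0.56. The CDK inhibitors and their relatives split 2 higher and 4 lower of 16, against the same shares of all genes. Sort genes split 1 and 4 of 9, stromal genes 2 and 1 of 6, peritubular genes 0 and 1 of 7, duct epithelium genes 0 and 4 of 8 (7 lower without P2.5 replicate 1), and blood genes 1 and 0 of 2.

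Among genes with at least 1 RPKM at both stages, picked by size after their values were seen, further rises were of Basp1, a membrane protein and WT1 corepressor (0.337, 1.39 and 1.42 and then 10.4, 9.95, 12.4 and 11.3), Vamp2, a vesicle fusion protein (3.15 ± 0.27, log2, SE), and the zinc finger gene Zfp39 (2.75 ± 0.22). Basp1 and Tmsb4x, thymosin beta 4, stood at means of 102 and 231 in whole testis. Further falls were of Kcnj15, an inward rectifier potassium channel (18.1, 17.7 and 21.7 and then 2.07, 2.07, 1.79 and 1.59), Sulf2, a heparan sulfate sulfatase (-3.40 ± 0.19), and the protocadherin gene Pcdh1 (-3.31 ± 0.18).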
